A study of Phaseolus coccineus with 4 samples.

Results

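Dehydroascorbate reductase (DHAR) and alternative oxidase (AOX) transcripts were followed in both regions of the scarlet runner bean embryo, with DHAR3 (Entrez gene 732557) and AOX3 (Entrez gene 548077) described most closely. Probe sets were taken where the array annotation gave a single gene symbol beginning with DHAR, or with AOX and a digit. This gave 5 genes, read by 8 of the 37593 soybean probe sets on an array of 61170 probe sets in all. DHAR3 and DHAR4 had 1 probe set each, AOX2 had 1, AOX1 had 2 and AOX3 had 3. DHAR3 and AOX3 were singled out because their signals lay in opposite directions between the regions. Their difference between regions is therefore a description, with no p-value of its own. They entered the fit over all tested probe sets, and nothing is read from their part in its counts.

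The samples were embryo proper, the part that forms the plant, and suspensor, the stalk that anchors it to the surrounding seed, of Phaseolus coccineus cv. Hammond's Dwarf Red Flower. Each region was represented by 2 samples from globular-stage embryos at 6 days after hand pollination, cut by laser from fixed paraffin sections of 6 µm. The plants carried no treatment or transgene in the labels, which call the samples biological replicates without naming plants, so the spread behind each p-value is that between these samples and may be technical. Amplified RNA was hybridised to a soybean array, 1 array per sample, so a weak signal can reflect a mismatch between bean transcript and soybean probe as well as a low transcript level.

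The arrays differed by region in ways that stand beside every result below. The background level of an array, taken as the 95th percentile of the probe sets made for Phytophthora and nematode, ran from 872.7 to 1034. Soybean probe sets above background numbered 8742 and 8634 for embryo proper, against 8180 and 7328 for suspensor. Input RNA was 60 and 75 ng for embryo proper, against 106 and 137 ng for suspensor. The median hybridisation spike was 46706 and 58957 on the embryo proper arrays, against 97327 and 159448 for suspensor. A 3' actin control read 13961 and 5246 for embryo proper, against 2766 and 4375 for suspensor. The 5' control of the same gene went the other way, at 89.7 and 399.6 for embryo proper against 857.3 and 1217 for suspensor, the last alone being above background, so the balance of 3' to 5' signal differed by region. The part of these differences in the results was not tested. Of the markers listed for the regions, only the gibberellin synthesis gene GA20OX3 for suspensor and LEC1-A for embryo proper matched a symbol. Both were below background on all 4 arrays, and no listed marker of endosperm or seed coat matched, so the tissue labels could not be checked this way. Precision is limited by having 2 arrays per region.

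Dehydroascorbate reductase regenerates ascorbate from its oxidised form, with glutathione as the reductant, and so serves the ascorbate-glutathione cycle by which plant cells remove hydrogen peroxide. It belongs to the glutathione S-transferase superfamily. In Arabidopsis the protein named DHAR3 lies in plastids; the annotation used here does not say whether the soybean symbol marks the same isoform. Alternative oxidase lies in the inner mitochondrial membrane, takes electrons from ubiquinol and passes them to oxygen, bypassing the later proton-pumping complexes. It is known for keeping respiration running when the cytochrome path is limited and for lowering the formation of reactive oxygen in mitochondria.

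DHAR3 read 6687 and 7074 on the embryo proper arrays, against 37913 and 15954 on the suspensor arrays. Both suspensor arrays were above both embryo proper arrays, and all 4 were well above background, from 7.59 to 41 times the background level of their array. The mean suspensor signal was 26933 ± 15527 (SD, n = 2), against a mean of 6881 ± 274.1 (SD, n = 2) for embryo proper. On the log2(signal + 16) scale the suspensor stood higher by 1.84, which is 3.57-fold. Over the 4 possible pairs of a suspensor and an embryo proper array, the fold ran from 2.25 to 5.66. In samples of whole regions, more cells with a transcript and more RNA per cell cannot be told apart.

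The spread of DHAR3 between replicates lay almost wholly in the suspensor. The embryo proper arrays differed 1.06-fold, a gap smaller than in most tested probe sets: 13% had a smaller one. The suspensor arrays differed 2.38-fold, and 82.6% of tested probe sets had a smaller gap there. The median gap over all tested probe sets was 1.28-fold in embryo proper and 1.47-fold in suspensor. Suspensor array 1 gave the highest DHAR3 signal. The hybridisation spikes were higher on both suspensor arrays than on both embryo proper arrays, and highest on suspensor array 2. Their part in the DHAR3 difference was not tested. Without suspensor array 1 the DHAR3 difference was 2.32-fold, and without suspensor array 2 it was 5.5-fold.

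DHAR4, the other dehydroascorbate reductase, read 2992 and 2321 on the embryo proper arrays, against 2868 and 2499 on the suspensor arrays. The regions overlapped, and every array was 2.42 to 3.4 times its background level. This gene was not picked for its difference, so the fit over all tested probe sets applies. The log2 difference was 0.02 ± 0.34 (SE, n = 2 per region), with an adjusted p of 0.98 in limma. The 95% confidence interval ran from 0.582-fold to 1.77-fold, so differences within that range in either direction cannot be told from 0 with these arrays. This interval belongs to DHAR4 alone and is no test of DHAR3. The sign of the DHAR4 difference changed in 3 of 15 alternative settings, namely centring on the Phytophthora and nematode probe sets (-0.14), leaving out embryo proper array 2 (-0.16) and leaving out suspensor array 1 (-0.08).

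**Figure D1:**
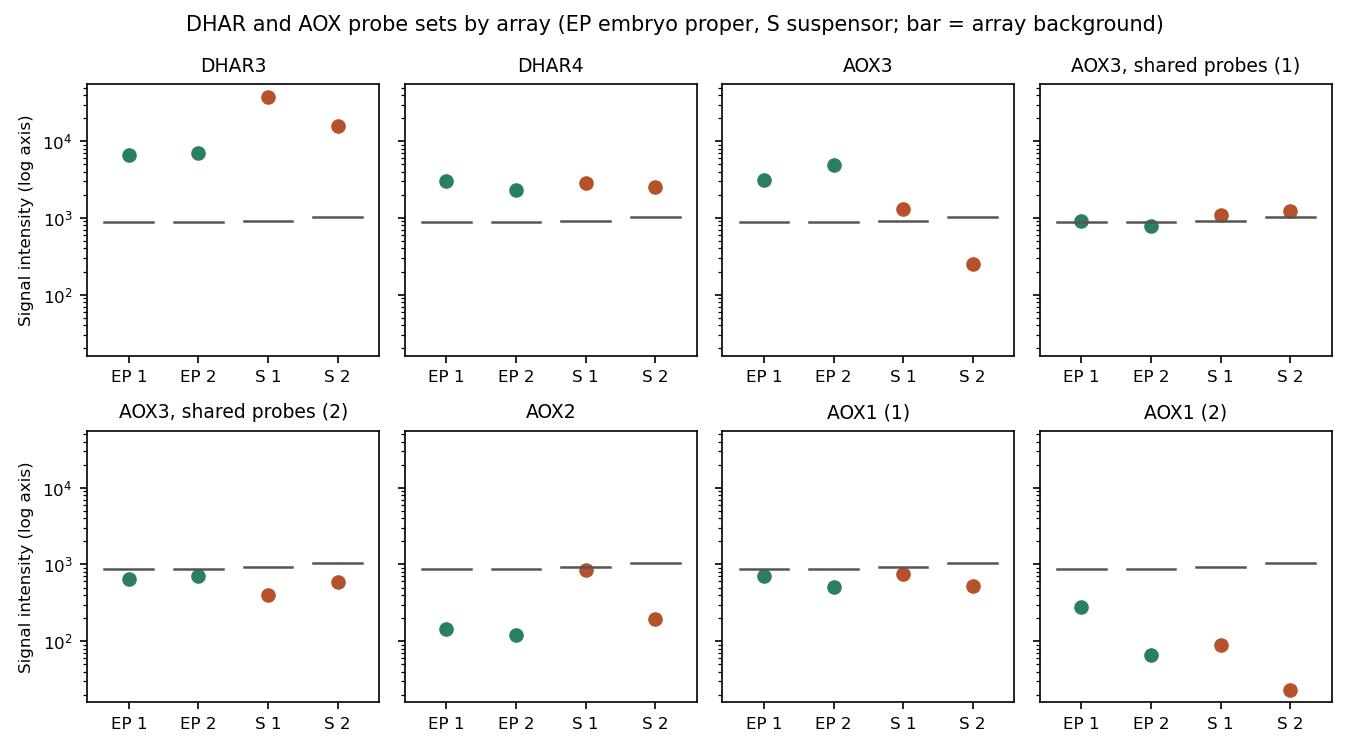
Signal intensity (log axis) of the 8 DHAR and AOX probe sets on the 4 arrays; points are single arrays and grey bars mark the background level of each array. DHAR3 is higher on both suspensor arrays, the AOX3 probe set without shared probes is higher on both embryo proper arrays, and AOX1 and AOX2 lie below background throughout.

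AOX3 was read by 3 probe sets that did not show the same thing. The probe set without shared probes read 3124 and 4832 on the embryo proper arrays, against 1310 and 254 on the suspensor arrays. Both embryo proper arrays were above both suspensor arrays, and suspensor array 2 was below background. The mean embryo proper signal was 3978 ± 1207 (SD, n = 2), against a mean of 782.2 ± 747.1 (SD, n = 2) for suspensor. The log2 difference, suspensor minus embryo proper, was -2.7, or 6.52-fold higher in embryo proper, with only 1 of the 2 suspensor arrays measured above background. With the signal of suspensor array 2 raised to the lowest soybean signal above background there, a setting added after the data were seen, embryo proper was higher by at least 3.31-fold. Against suspensor array 1 alone the embryo proper arrays were 2.37-fold and 3.65-fold higher, and against suspensor array 2 at least 2.99-fold and 4.62-fold.

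The size of the AOX3 difference rested on the dim signal of suspensor array 2. Without that array it was 2.94-fold, and without suspensor array 1 embryo proper was higher by at least 3.72-fold. The suspensor arrays differed 4.91-fold from each other, and 93.6% of tested probe sets had a smaller gap there. With the background level set at the 99th percentile, both suspensor signals were below it, and embryo proper was higher by at least 2.5-fold. Signal below background on suspensor array 2 alone was common: 1075 tested probe sets were above background on every other array. The corresponding counts for the other arrays were 303, 320 and 355. Suspensor array 2 also had the highest background level, at 1034. The part of either in the AOX3 value was not tested.

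The other AOX3 probe sets contain probes common to several transcripts, so their signal need not come from AOX3 alone. One read 920 and 781 on the embryo proper arrays, against 1107 and 1221 on the suspensor arrays, close to background, and was 1.36-fold higher in suspensor, the opposite direction. It was above background on 3 arrays at the 95th percentile and on 0 at the 99th. The last read 654 and 710 on the embryo proper arrays, against 395 and 598 on the suspensor arrays, below background on all 4 arrays. Among AOX3 probe sets with signal above background, the lean toward embryo proper was thus seen in 1 of 2.

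AOX1 and AOX2, the remaining alternative oxidase symbols, were below background on all 4 arrays. One AOX1 probe set ranged from 514 to 740 and the other from 23 to 275. AOX2 read 146 and 119 on the embryo proper arrays, against 850 and 197 on the suspensor arrays, the third of these at 0.919 of its background level. No fold is given for these, since both regions were below background. Values below background have no order, and a weak signal of bean RNA on a soybean probe does not show that a gene was silent.

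Of the 8 probe sets, 4 were above background on at least 2 arrays and entered the fit of 8972 soybean probe sets, and 4 were above background on none. Among all soybean probe sets, 65.7% never exceeded the background level. In limma 0 of the 4 tested members had an adjusted p under 0.05, beside 2.75% of all tested probe sets (0.892% with the higher signal in suspensor, 1.86% with it in embryo proper). At an unadjusted p under 0.05 the count was 2 of 4, beside 20.1% of all tested. Of the 4, 3 are DHAR3 and AOX3 probe sets, chosen on this same contrast, so nothing is read from these counts. The regions did not overlap in 3 of the 4, beside 53.2% of all tested probe sets. In 2 of these 3 the suspensor was the higher region, beside 19.8% of all tested, and in 1 the embryo proper, beside 33.4%, and nothing is read from these either.

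Related redox genes were taken from lists of symbols for the ascorbate-glutathione cycle, ascorbate and glutathione synthesis, superoxide and peroxide removal, thioredoxin systems and mitochondrial electron transport. These matched 28 probe sets, of which 11, for 10 genes, were tested. In limma 0 of the 11 passed at an adjusted p under 0.05 in either direction, beside 2.75% of all tested, and 4 had an unadjusted p under 0.05, beside 20.1%. Among these 4 was a probe set of the catalase CAT4 that entered the fit only through the embryo proper arrays, where it is high. Nothing is read from its part in the count. The difference was positive, higher in suspensor, in 8 and negative in 3, while 40.8% of all tested probe sets were positive. The median log2 difference was 0.20, against -0.18 over all tested probe sets. No symbol matched the list for mitochondrial electron transport, so the partners of alternative oxidase were not analysed here.

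The closest partners of dehydroascorbate reductase gave values that overlapped or nearly met between regions. APX1, an ascorbate peroxidase, which spends ascorbate on hydrogen peroxide, read 1880 and 2171 on the embryo proper arrays, against 2150 and 1281 on the suspensor arrays. Its log2 difference was -0.28 (adjusted p = 0.72 in limma), and the other 4 APX1 probe sets and all 3 of APX2 were above background on at most 1 array. GR, glutathione reductase, which restores the glutathione that dehydroascorbate reductase uses, read 1363 and 1317 on the embryo proper arrays, against 1120 and 1716 on the suspensor arrays by a probe set with shared probes. Its log2 difference was 0.05 (adjusted p = 0.96 in limma), and a further GR probe set was above background on only 1 array. HGS, homoglutathione synthetase, which makes the legume counterpart of glutathione, stood at -0.23 (adjusted p = 0.76 in limma).

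Superoxide dismutases, which turn superoxide into hydrogen peroxide, had higher signals on both suspensor arrays for all 3 tested genes, without passing the test. Such a gap with suspensor higher was found in 19.8% of all tested probe sets. SODB read 45772 and 57195 on the embryo proper arrays, against 125182 and 85720 on the suspensor arrays by a probe set with shared probes, 2.02-fold higher in suspensor (adjusted p = 0.18 in limma). A further SODB probe set was below background on all 4 arrays. SODB2 read 4474 and 6557 on the embryo proper arrays, against 11652 and 9304 on the suspensor arrays, 1.92-fold higher (adjusted p = 0.19 in limma). SOD1 was 1.69-fold higher, with its regions nearly touching at 2206 in embryo proper and 2288 in suspensor (adjusted p = 0.36 in limma). SODB passed after quantile normalization and without suspensor array 2, the only settings of 15 in which a superoxide dismutase did. As for DHAR3, the higher suspensor signal of each of these genes was that of array 1.

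Among catalases, which break down hydrogen peroxide, CAT1 had a log2 difference of 0.71 with overlapping regions (adjusted p = 0.45 in limma). The 2 tested CAT4 probe sets disagreed. One stood at 0.20 with overlapping regions, and the one with shared probes did not reach background on both suspensor arrays, so embryo proper was higher by at least 1.53-fold (adjusted p = 0.21 in limma), a bound that could not be given with background at the 99th percentile. PRX3, a peroxidase symbol whose class the annotation does not give, stood at 0.14, near background (adjusted p = 0.92 in limma). A further PRX3 probe set was above background on only 1 array. FTRC, a subunit of ferredoxin-thioredoxin reductase, read 886 and 1299 on the embryo proper arrays, against 2786 and 2472 on the suspensor arrays. It was 2.42-fold higher in suspensor without passing (adjusted p = 0.13 in limma), and it passed in 1 of 15 settings, where detection on all 4 arrays was required.

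**Figure D2:**
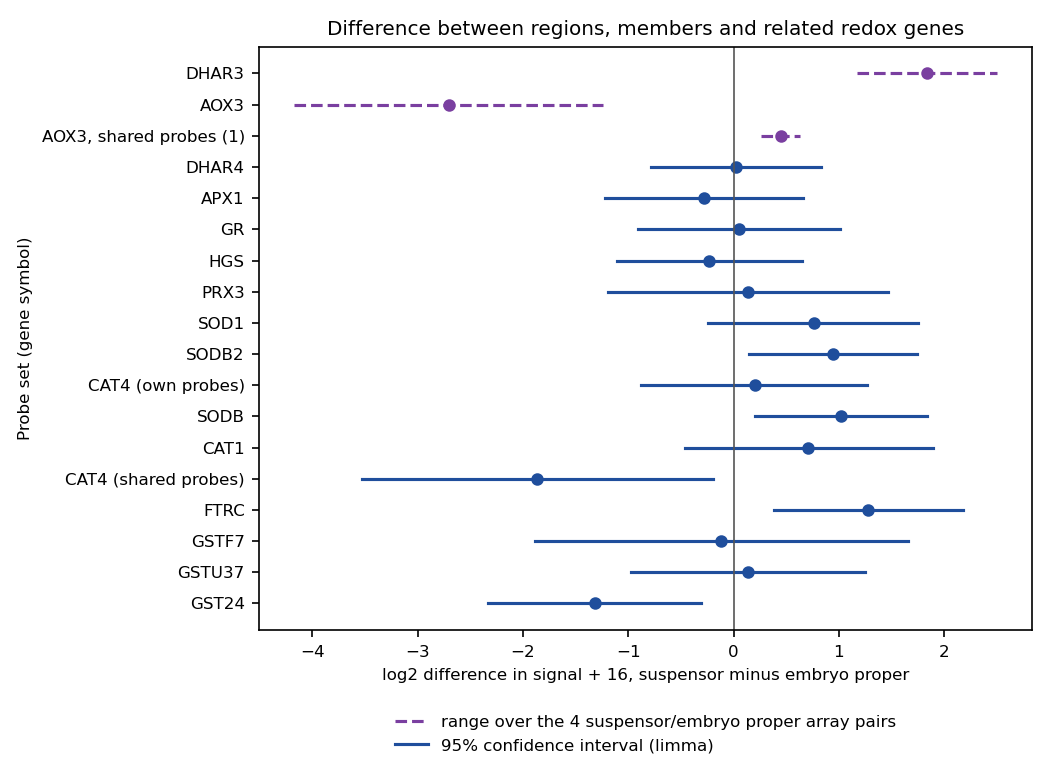
Log2 difference in signal + 16, suspensor minus embryo proper, for tested members, redox list genes and glutathione S-transferases. Dashed lines give the range over 4 array pairs for DHAR3 and AOX3, whose contrast was used to choose them, and for AOX3 extend to pairs with a suspensor signal below background; solid lines give limma's 95% confidence interval for the others, not adjusted for the number of probe sets, and none of these passed after adjustment. DHAR3 at 1.84 and the AOX3 probe set without shared probes at -2.7 lie on opposite sides of 0. The tested AOX3 probe set with shared probes lies at 0.45, on the side of DHAR3, and DHAR4 lies at 0.02. For GST24 and the CAT4 probe set with shared probes, both suspensor signals were below background, so their points and intervals are not measured differences.

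The glutathione S-transferases, the wider family of dehydroascorbate reductase, gave little signal on these arrays. Of 42 probe sets, 36 never exceeded background, beside 65.7% of all soybean probe sets, and 3 were tested, with a median log2 difference of -0.12. None passed in limma, beside 2.75% of all tested, and 1 had an unadjusted p under 0.05, beside 20.1%. That was GST24, at 1544 and 2091 in embryo proper, with both suspensor arrays below background. Embryo proper was thus higher by at least 1.82-fold, or 1.16-fold with background at the 99th percentile. GST24 entered the fit only through the embryo proper arrays, where it is high, and limma used its suspensor values below background. Nothing is read from its p-value (adjusted p = 0.16 in limma) or from that count. GSTF7 and GSTU37 had log2 differences of -0.12 and 0.14, each with overlapping regions.

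The named genes whose pattern over the 4 arrays was nearest to DHAR3 were PAP14, ELIP, FAD3C and DGD1. Likeness was the root mean square distance between log2 values, each centred on its mean over 4 arrays, searched over 341 genes with a symbol. The distances were 0.23, 0.25, 0.26 and 0.30, beside a median of 1.11. PAP14, a purple acid phosphatase, read 11887 and 10134 on the embryo proper arrays, against 43558 and 25046 on the suspensor arrays. ELIP, an early light-inducible protein of plastids, had 5009 and 6751 against 26300 and 9491. FAD3C, an omega-3 fatty acid desaturase, and DGD1, which makes the galactolipid of plastid membranes, also had their highest signal on suspensor array 1, at 95394 and 7440. All 4 genes shared with DHAR3 the order suspensor 1, suspensor 2, then embryo proper. They were chosen by distance over these same arrays, so the shared order is no separate result.

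The genes nearest to AOX3 were SCA2, GPA1, BIN2 and TIR1C, at distances of 0.27, 0.37, 0.42 and 0.45 beside a median of 1.57. SCA2 read 2514 and 2432 on the embryo proper arrays, against 974 and 140 on the suspensor arrays. TIR1C, an auxin receptor F-box protein, had 3670 and 3802 against 1058 and 115. GPA1, a G protein alpha subunit, and BIN2, a kinase of brassinosteroid signalling, were below background on both suspensor arrays. All 4 were below background on suspensor array 2, at 50 to 140, as was AOX3, so the likeness rests in part on signals that have no order. With 4 arrays, either comparison describes these arrays alone.

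**Figure D3:**
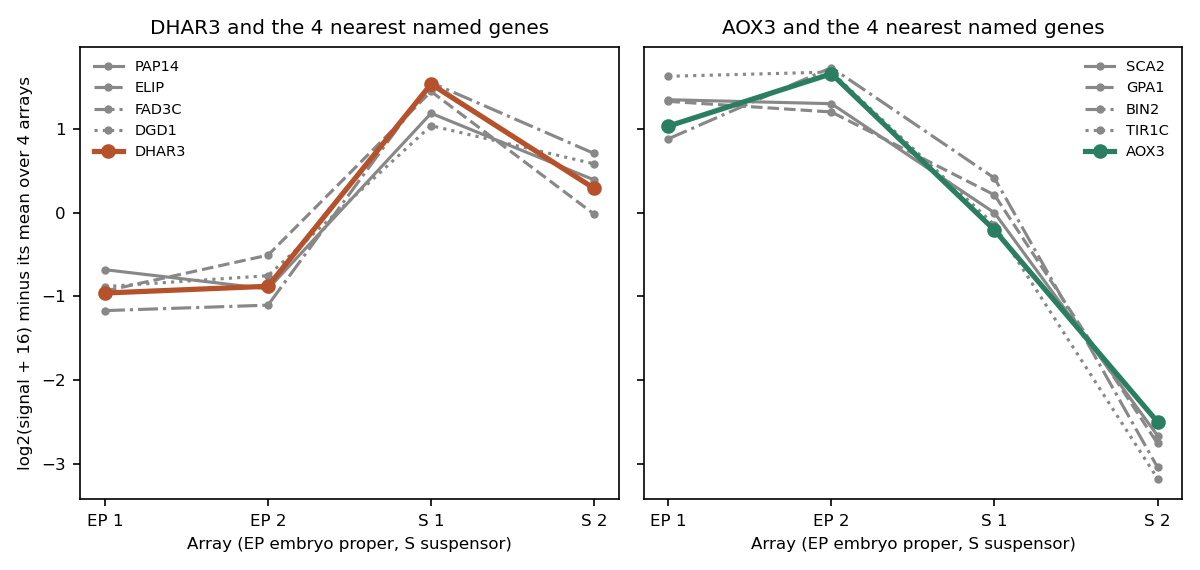
Log2(signal + 16) of DHAR3 (left) and AOX3 (right, the probe set without shared probes), each minus its mean over 4 arrays, with the 4 nearest named genes in grey; lines join the arrays of 1 probe set. The DHAR3 group peaks on suspensor array 1, and the AOX3 group is lowest on suspensor array 2.

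**Figure D4:**
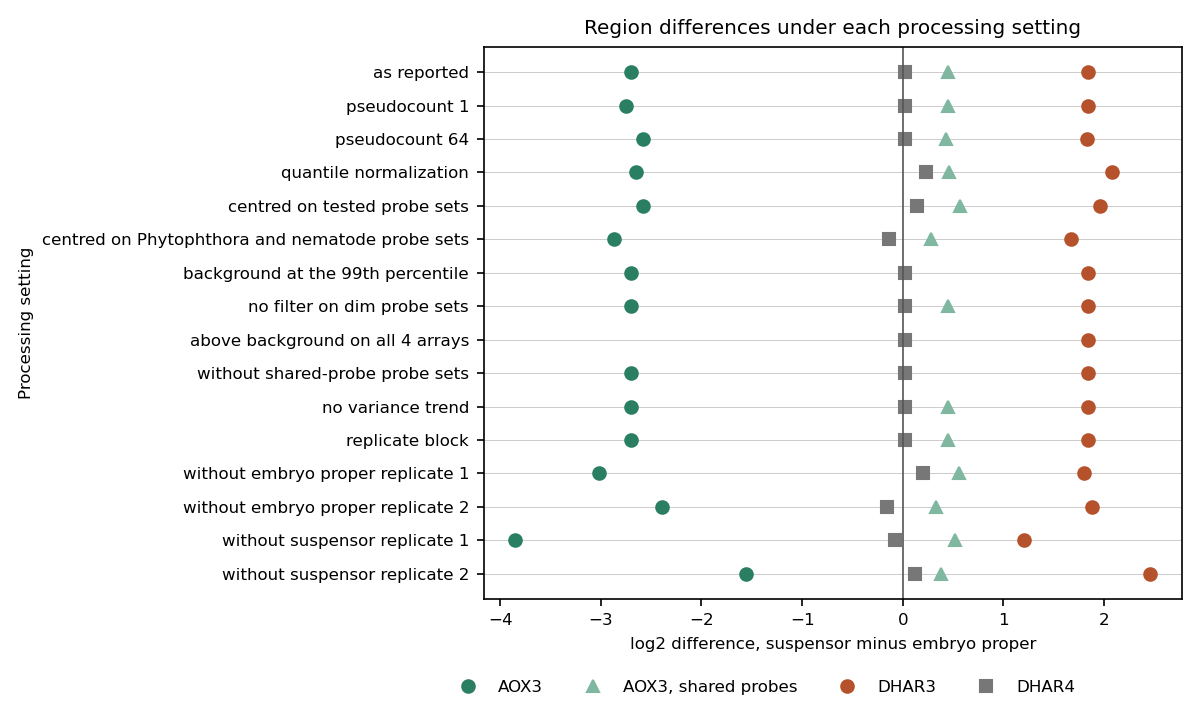
Log2 difference, suspensor minus embryo proper, of the 4 tested member probe sets under each processing setting; a missing point means that the probe set did not pass that filter. DHAR3 stays between 1.21 and 2.46 and the AOX3 probe set without shared probes between -3.85 and -1.56, with the extremes set by leaving out 1 suspensor array and the lowest AOX3 value resting on 1 signal below background, while DHAR4 lies on either side of 0.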

How the data were processed

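Embryo proper and suspensor, 2 samples each, were grouped by sample title. The deposited values are linear intensities for each probe set; the submitters' processing notes name GCOS 1.3. Its summary algorithm is not given in the sources used here, nor are detection calls. After trimming 2% at each end, the mean was 500.0 to 500.2 on every array, and values were used on that scale. RNA was amplified before labelling, per the labels' protocols, which favours 3' ends.

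Soybean probe sets above background (95th percentile of 15820 Phytophthora and 7530 nematode probe sets) on at least 2 arrays were tested. Log2(intensity + 16) was fitted with limma 3.58.1 in R 4.3.3 (lmFit, eBayes with a variance trend, Benjamini-Hochberg over 8972 probe sets); these folds understate changes of dim probe sets. Where a region was below background on both arrays, a fold is a bound: the bright region's mean over, per dim array, its own value or, if higher, the dimmest soybean signal that exceeded background. Probe sets of a gene are given separately.

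Symbols came from the platform annotation, in which 8677 probe sets had 1 symbol, 370 several and 28546 soybean probe sets none. The bean gene table, of 34063 genes, matched 0 members, so no positions or sequences are given. Named were all members, listed redox genes tested (up to 6 per list), up to 4 glutathione S-transferases by p, and the 4 nearest genes to DHAR3 and AOX3. Members and lists were chosen with earlier results of these data known. The 15 alternatives cover pseudocount, scaling, filters, variance trend, replicate block and leaving out each array.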

Additional observations from a re-analysis of the deposited data

How the results depend on the processing

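DHAR3 kept its direction in all 15 settings, at 1.21 to 2.46 on the log2 scale, and the AOX3 probe set without shared probes in the 14 that tested it, at -3.85 to -1.56. Both ranges were set by leaving out 1 suspensor array, and -3.85 rests on a signal below background; with that signal at the lowest one above background, a setting chosen after seeing the data, AOX3 over all 4 arrays stood at -1.73. Where 1 array is left out or the pseudocount is changed, the kept direction was fixed by regions that do not overlap. The filters, the variance trend and the replicate block left both estimates unchanged. In all these settings the kept direction is no sign of stability. The shared AOX3 probe set moved from 0.45 to 0.28 with centring on Phytophthora and nematode signals. DHAR4 changed sign to -0.14 with that centring, and lay between -0.16 and 0.20 when arrays were left out in turn, negative (-0.16) without embryo proper replicate 2 and (-0.08) without suspensor replicate 1; its adjusted p in limma ran from 0.68 to 0.99 over all settings. The redox lists gave 1 call, higher in suspensor, after quantile normalization (SODB) and where all 4 arrays had to be detected (FTRC), and 0 to 1 when arrays were left out in turn (SODB, without suspensor replicate 2). Over all tested probe sets, calls numbered 80 for suspensor and 167 for embryo proper. They became 134 and 293 for a 99th-percentile background, 192 and 334 where all 4 arrays had to be detected, 48 and 111 after removing shared probes, and 21 and 66 when the variance trend was dropped. For suspensor they became 198 after quantile normalization, 129 with centring on tested probe sets and 48 with centring on Phytophthora and nematode signals. The replicate block gave 138 and 292. Pairing was not assumed, since no label says what a replicate number shared between regions stands for. The deviations of same-numbered arrays had a correlation of -0.0242 across 8972 probe sets. With 1 replicate difference per region, this value cannot decide whether the arrays are paired. Leaving arrays out in turn gave 3 to 153 for suspensor and 3 to 1054 for embryo proper, the lone array being assumed to vary as the other region did. Stricter filters also change how many probe sets are tested. The cause of the changed counts was not tested for any setting. Signal over background is a further limit: 4 of the 8 member probe sets exceeded it on no array.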
